A study of Mus musculus with 9 samples.

Results

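The genes described here encode amino acid, glucose and monocarboxylate transporters of the solute carrier (Slc) group. They were taken by symbol: every gene whose symbol starts with Slc1a, Slc2a, Slc3a, Slc7a, Slc16a or Slc38a and that a probe set names alone. This gave 62 of the 19938 genes measured: 7 of the Slc1 family, 13 of Slc2, 2 of Slc3, 16 of Slc7, 13 of Slc16 and 11 of Slc38. Of the 62, 2 carry such a symbol without being transporters, the pseudogene Slc2a4rg-ps and Slc7a6os, which lies opposite Slc7a6. A gene was read from its probe set with the highest mean over the 9 arrays, and for Slc16a9 both probe sets are given.

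The study measured RNA from mouse dendritic cells grown in culture from bone marrow progenitors, on 9 Affymetrix arrays in 3 groups of 3 biological replicates. The groups were JmjD2d-knockdown cells 4 h after 100 ng/ml LPS (bacterial lipopolysaccharide), wild-type cells 4 h after the same LPS dose, and unstimulated wild-type cells. Progenitors grew with IL-3, IL-6 and SCF at 20 ng/ml each and were differentiated over 8 days, 4 days in 4% GM-CSF supernatant with 5 ng/ml SCF and 4 days in GM-CSF alone. The knockdown cells had been infected as progenitors with the retroviral vector pSir-delta U6CHisD, which carries a hairpin against JmjD2d (gene Kdm4d, a histone demethylase), and selected in 2 mM histidinol, while the wild-type cells were untransduced. Loss of JmjD2d therefore cannot be told apart from infection and selection, and no array of unstimulated knockdown cells or of a control hairpin was analysed here.

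Solute carriers move nutrients across membranes without using ATP directly. Slc7 light chains are brought to the plasma membrane by a heavy chain of the Slc3 family, Slc38 carriers take up glutamine and other neutral amino acids with sodium, Slc2 carriers let sugars through, and the best known Slc16 carriers move lactate with a proton. Dendritic cells and macrophages are known to turn to glycolysis on LPS, to export lactate, and to use arginine for nitric oxide and cystine for glutathione.

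Values are on the log2 scale of the authors' RMA processing, so a difference of 1 is a 2-fold change, and the level of one probe set says nothing about the level of another. A gene is called changed when its adjusted p is under 0.05 in limma's moderated test over all 19938 genes (two-sided, Benjamini-Hochberg). Array medians lay between 7.217 and 7.315, and the correlation across genes between arrays of 1 group was 0.985 to 0.997. Kdm4d read 7.43, 7.11 and 7.40 in knockdown cells after LPS, against 7.79, 7.54 and 7.74 in wild-type cells after LPS. The knockdown values lay below the wild-type LPS ones, and the difference of -0.37 was not called (limma adjusted p = 0.278). Unstimulated wild-type cells read 7.24, 7.65 and 7.62, and the knockdown values overlapped these (difference -0.19, limma adjusted p = 0.503). For scale, the 40th percentile of genes was 6.98 to 7.17 over the arrays. Of 10 dendritic cell markers, 9 stood above the 40th percentile of genes on at least 3 arrays. So did 4 of 10 mast cell and basophil, 12 of 12 neutrophil, 9 of 12 macrophage and 1 of 9 lymphocyte markers. Means of lists with many dim markers rest partly on readings near the floor. The mean log2 level of the 10 dendritic cell markers was 8.44 to 9.46 in knockdown cells after LPS. It was 9.55 to 10.54 in wild-type cells after LPS and 9.26 to 10.45 in unstimulated wild-type cells. For 10 mast cell and basophil markers it was 6.31 to 6.68 in knockdown cells after LPS, 7.05 to 7.45 in wild-type cells after LPS and 6.67 to 6.95 in unstimulated wild-type cells. For 12 markers of neutrophils and their precursors it was 7.74 to 9.53 in knockdown cells after LPS, 8.68 to 10.2 in wild-type cells after LPS and 8.16 to 9.54 in unstimulated wild-type cells. For 12 macrophage markers it was 9.83 to 10.4 in knockdown cells after LPS, 9.99 to 10.36 in wild-type cells after LPS and 9.90 to 10.46 in unstimulated wild-type cells, and the mean of 9 lymphocyte markers lay between 6.0 and 6.30 on all arrays.

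After LPS in wild-type cells, 12 of the 62 members changed, 6 higher and 6 lower. Slc16a10, a carrier of aromatic amino acids, rose 6.27-fold, and Slc7a11, the cystine and glutamate exchanger, rose 2.22-fold. Slc2a6, a sugar carrier of intracellular membranes, rose 1.93-fold. Slc38a9, the arginine sensor of the lysosome, fell 2.13-fold, Slc16a7, a pyruvate and lactate carrier with high affinity, fell 1.85-fold, and the glutamine exchanger Slc1a5 fell 1.75-fold. The share called was 19.4% of the members, against 10.9% of all genes. By direction it was 9.68% higher and 9.68% lower among members, against 3.99% higher and 6.86% lower among all genes. The values of the groups did not overlap for 22 members (35.5%), against 29.3% of all genes, counting 13 higher (12.8% of all genes) and 9 lower (16.5% of all genes). The median difference was 0.08 over the members and 0.04 over all genes. In bulk RNA, fewer cells of a type and less RNA per cell cannot be told apart.

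**Figure D1:**
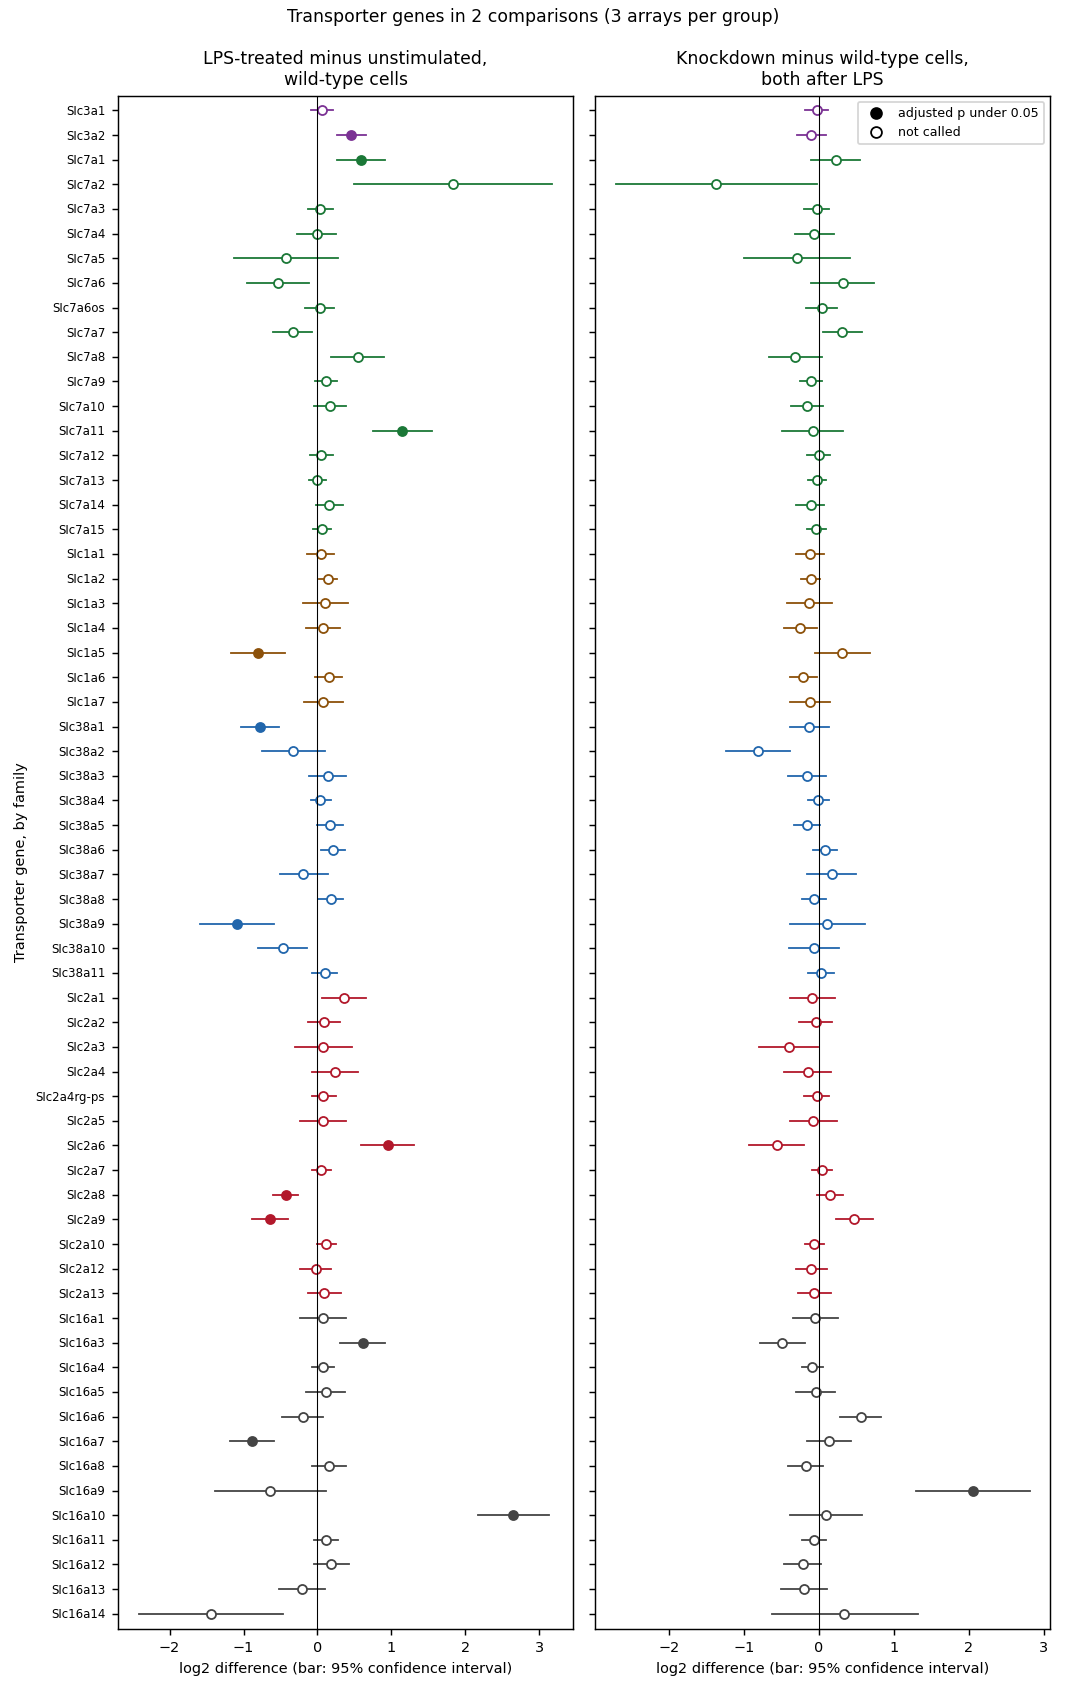
log2 differences of the 62 members (rows, coloured by family) with 95% confidence intervals, for LPS-treated minus unstimulated wild-type cells (left) and knockdown minus wild-type cells after LPS (right), from 3 arrays per group. Filled points mark an adjusted p under 0.05: 12 members on the left, from Slc38a9 at -1.09 to Slc16a10 at 2.65, and on the right Slc16a9 alone, at 2.06.

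The heavy chain Slc3a2, which with its light chains forms the CD98 antigen, read 13.72, 13.80 and 13.83 in LPS-treated cells, against 13.20, 13.45 and 13.31 in unstimulated cells. The LPS values all lay above the unstimulated ones, with a rise of 0.46 (SE 0.08, limma adjusted p = 0.012). The other heavy chain, Slc3a1, known from kidney and gut, differed by 0.06 (limma adjusted p = 0.579).

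Of 10 light chains, 1 changed in the model without pairing. Slc7a11, which imports cystine in exchange for glutamate, read 13.67, 13.40 and 13.72 in LPS-treated cells, against 12.33, 12.80 and 12.21 in unstimulated cells. The groups did not overlap, unstimulated replicate 2 lay nearest to the LPS values, and the rise was 1.15 (SE 0.18, limma adjusted p = 0.00609). Slc7a6, a carrier that exchanges cationic for neutral amino acids, read 9.27, 9.46 and 8.92 in LPS-treated cells, against 9.79, 9.98 and 9.48 in unstimulated cells. Each LPS array lay below the unstimulated array of the same number, by 0.53, 0.51 and 0.57. That difference of -0.54 had a limma adjusted p of 0.102, and of 0.0124 in the paired fit, which adds the replicate number as a block. Slc7a8, a carrier of neutral amino acids, read 12.44, 12.84 and 12.74 in LPS-treated cells, against 11.85, 12.21 and 12.32 in unstimulated cells. These values did not overlap either, and the difference of 0.55 was not called (limma adjusted p = 0.0606, and 0.0546 in the paired fit). Slc7a7, the basolateral exchanger of cationic amino acids, differed by -0.33 (limma adjusted p = 0.107). Slc7a5, the exchanger of large neutral amino acids, differed by -0.42 (SE 0.31, limma adjusted p = 0.41). The remaining 5, Slc7a9, Slc7a10, Slc7a12, Slc7a13 and Slc7a15, had differences of 0.17 or less in size and were not called.

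The promoter of Slc7a11 is shown because this gene is a known target of the amino acid response, in which the factor ATF4 binds C/EBP-ATF response elements (CARE, searched as TGATGNAA on both strands). RefSeq's promoter table (GRCm38.p6) held 56 promoters of 46 of the 62 members, and the 250 bases before each start were searched. A CARE match was found in 3 of the 56 (5.36%), belonging to Slc7a11 and Slc7a7, against 3.45% of 32851 promoters of all genes. Slc7a11 had a pair of matches in opposite orientation, with first bases at -66 and -47 from the start, shown in capitals on the gene's strand.
Slc7a11, chr3:50443614-50443863, minus strand: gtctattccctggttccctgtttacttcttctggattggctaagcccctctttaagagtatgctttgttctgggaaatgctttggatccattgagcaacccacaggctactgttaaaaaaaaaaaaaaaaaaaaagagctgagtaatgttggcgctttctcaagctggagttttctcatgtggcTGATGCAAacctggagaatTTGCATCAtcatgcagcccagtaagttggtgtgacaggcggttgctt
The promoters of the largest LPS rise and of the gene that differed between knockdown and wild-type cells are given for comparison, and held none of the motifs searched.
Slc16a10, chr10:40142255-40142504, minus strand: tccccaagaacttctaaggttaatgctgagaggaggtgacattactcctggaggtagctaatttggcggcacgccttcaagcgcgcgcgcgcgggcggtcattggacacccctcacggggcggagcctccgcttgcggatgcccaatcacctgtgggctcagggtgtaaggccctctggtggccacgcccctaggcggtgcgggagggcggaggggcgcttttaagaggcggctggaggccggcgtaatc
Slc16a9, chr10:70245026-70245275, plus strand: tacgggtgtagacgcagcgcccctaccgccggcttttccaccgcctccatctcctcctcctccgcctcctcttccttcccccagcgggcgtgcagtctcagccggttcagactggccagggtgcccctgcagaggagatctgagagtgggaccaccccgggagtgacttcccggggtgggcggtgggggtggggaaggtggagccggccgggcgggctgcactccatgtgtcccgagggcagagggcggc
The promoter of Slc38a2, described below with the knockdown cells, held a match (capitals, first base at -27) of the antioxidant response element, searched as TGACNNNGC.
Slc38a2, chr15:96699729-96699978, minus strand: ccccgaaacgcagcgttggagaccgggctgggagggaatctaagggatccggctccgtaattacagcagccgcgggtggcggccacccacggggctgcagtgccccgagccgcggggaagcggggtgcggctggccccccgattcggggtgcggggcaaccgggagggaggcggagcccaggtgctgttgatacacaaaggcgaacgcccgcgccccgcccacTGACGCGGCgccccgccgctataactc
That element matched 8.93% of the member promoters and 10.2% of all promoters. The E-box CACGTG matched 12.5% of member promoters and 6.02% of all promoters. Its 7 member genes were Slc16a1, Slc16a12, Slc1a6, Slc1a7, Slc38a5, Slc38a7 and Slc7a14. None of these was called in any comparison in either fit. The NF-kB motif matched 0 of 56 member promoters and 1.21% of all promoters. Each motif was searched separately on both strands, so matches of different motifs may overlap, and a match is a run of letters and not a measured binding site.

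Among the cationic amino acid carriers and their relatives, 1 of 5 was called. Slc7a1, the general arginine and lysine importer, read 9.59, 9.24 and 9.54 in LPS-treated cells, against 8.93, 8.85 and 8.81 in unstimulated cells. The groups did not overlap, and the rise was 0.59 (SE 0.14, limma adjusted p = 0.0333). Slc7a2, the inducible arginine importer that feeds nitric oxide synthesis in macrophages, read 9.87, 8.54 and 7.07 in LPS-treated cells, against 6.69, 6.89 and 6.40 in unstimulated cells. All LPS values were above all unstimulated ones, but they had the largest SD of any member in that group, 1.40. The unstimulated values all lay under the 40th percentile of genes (6.98 to 7.17 over the arrays), and LPS replicate 3 lay within that span. The difference of 1.83 (SE 0.59) had a limma adjusted p of 0.0869, and of 0.0437 in the paired fit. Slc7a3, Slc7a4 and Slc7a14 differed by 0.04, -0.01 and 0.16 and were not called.

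The 5 glutamate carriers of the Slc1 family (Slc1a1, Slc1a2, Slc1a3, Slc1a6 and Slc1a7) had differences of 0.05 to 0.15, and none was called (lowest limma adjusted p = 0.141). Slc1a5, which exchanges glutamine and other neutral amino acids, read 10.10, 10.12 and 9.54 in LPS-treated cells, against 10.85, 10.72 and 10.60 in unstimulated cells. It fell by 0.80 (SE 0.16, limma adjusted p = 0.0165), with LPS replicate 3 the lowest value. Its relative Slc1a4 differed by 0.08 (limma adjusted p = 0.632).

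In the Slc38 family 2 of 11 members fell and none rose. Slc38a1, a sodium-coupled glutamine importer, read 10.51, 10.52 and 10.35 in LPS-treated cells, against 11.45, 11.00 and 11.28 in unstimulated cells. The fall was 0.78 on the log2 scale (SE 0.11, limma adjusted p = 0.00511), and its second probe set gave -1.02 (limma adjusted p = 0.0116 over all single-gene probe sets). Slc38a9, which reports lysosomal arginine to the growth kinase mTORC1, read 9.67, 10.37 and 9.54 in LPS-treated cells, against 11.16, 10.69 and 11.01 in unstimulated cells. It fell by 1.09 (SE 0.22, limma adjusted p = 0.0175), and LPS replicate 2 lay nearest to the unstimulated values. Its second probe set gave -0.53 (limma adjusted p = 0.0186 over all single-gene probe sets). Slc38a10 differed by -0.47 without overlap (limma adjusted p = 0.0757, and 0.0259 in the paired fit). The other 8 had differences of -0.33 (Slc38a2) to 0.21 (Slc38a6), and none was called.

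Of 12 sugar carriers, 1 rose and 2 fell. Slc2a6 read 13.75, 13.50 and 13.80 in LPS-treated cells, against 12.90, 12.49 and 12.81 in unstimulated cells. The groups were well apart, with a rise of 0.95 (SE 0.16, limma adjusted p = 0.00839). Slc2a9, a urate carrier, read 8.25, 8.71 and 8.41 in LPS-treated cells, against 9.12, 9.05 and 9.12 in unstimulated cells. It fell by 0.64 (SE 0.11, limma adjusted p = 0.00859). Slc2a8, an intracellular glucose carrier, read 8.04, 8.06 and 8.01 in LPS-treated cells, against 8.57, 8.35 and 8.48 in unstimulated cells. This was a narrow but clear separation, with a fall of 0.43 (SE 0.07, limma adjusted p = 0.00992). Slc2a1, the main glucose importer of most cultured cells, read 12.65, 12.46 and 12.57 in LPS-treated cells, against 12.09, 12.53 and 11.98 in unstimulated cells. Unstimulated replicate 2 lay within the LPS range, and the difference of 0.36 was not called (limma adjusted p = 0.125). The 8 other sugar carriers (Slc2a2, Slc2a3, Slc2a4, Slc2a5, Slc2a7, Slc2a10, Slc2a12 and Slc2a13) had differences of -0.02 to 0.24 and were not called.

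Of the 4 lactate and pyruvate carriers, 1 rose and 1 fell. Slc16a3, known as MCT4 and as the lactate exporter of glycolytic cells, read 11.35, 11.38 and 11.41 in LPS-treated cells, against 10.73, 11.02 and 10.57 in unstimulated cells. It rose by 0.61 (SE 0.13, limma adjusted p = 0.0234). Slc16a7, known as MCT2, read 8.95, 9.43 and 9.01 in LPS-treated cells, against 10.05, 9.92 and 10.09 in unstimulated cells. It fell by 0.89 (SE 0.13, limma adjusted p = 0.00518). Slc16a1 (MCT1) and Slc16a8 (MCT3) differed by 0.07 and 0.16 and were not called.

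The other 9 Slc16 members included the largest LPS difference among the 62. Slc16a10 read 11.12, 10.84 and 11.13 in LPS-treated cells, against 8.12, 8.83 and 8.19 in unstimulated cells. The groups were far apart, unstimulated replicate 2 was the highest of its group, and the rise was 2.65 (SE 0.21, limma adjusted p = 0.000507). Slc16a14, an orphan member, read 6.63, 6.44 and 6.74 in LPS-treated cells, against 8.34, 6.88 and 8.91 in unstimulated cells. Unstimulated replicate 2 lay far below the other unstimulated arrays (SD 1.05), and the difference of -1.44 was not called (limma adjusted p = 0.0679, and 0.0385 in the paired fit). Slc16a9 differed by -0.64 (limma adjusted p = 0.261), and its dim second probe set by -0.02 (limma adjusted p = 0.892 over all single-gene probe sets). Slc16a4, Slc16a5, Slc16a6, Slc16a11, Slc16a12 and Slc16a13 had differences of -0.21 to 0.19. Of the 62 members, 25 did not stand above the 40th percentile of genes on at least 3 arrays, and 37 did. Of these 25, 1 was called in the paired fit (Slc16a14) and none without pairing.

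**Figure D2:**
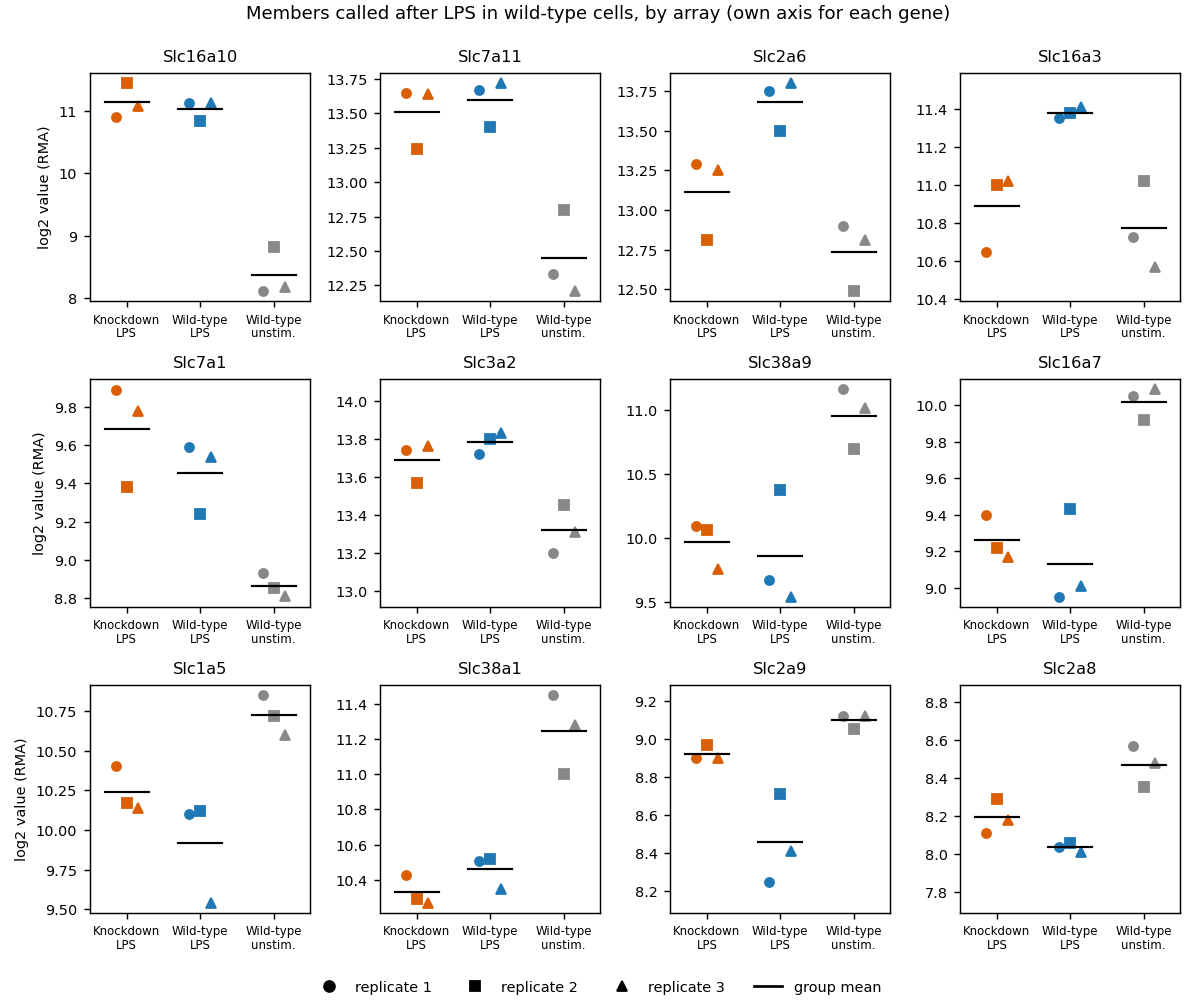
log2 values of the 12 members called after LPS in wild-type cells, 1 point per array, with a black line at each group's mean (3 arrays). The first 6 panels (Slc16a10 to Slc3a2) hold genes that rose with LPS and the other 6 (Slc38a9 to Slc2a8) genes that fell, each panel has its own axis, and the wild-type LPS and unstimulated values do not overlap in any of them.

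The paired fit called 16 members after LPS, 25.8% against 14.8% of all genes: the 12 above, with Slc7a2 higher and Slc7a6, Slc16a14 and Slc38a10 lower. That is 7 higher and 9 lower, where 5.19% of all genes were called higher and 9.57% lower. Leaving out single arrays ended 5 of the 12 calls. Slc16a3 and Slc38a9 were lost without replicate 1 or 3 of either wild-type group (limma adjusted p up to 0.0888 and 0.0723). Slc3a2 was lost without replicate 3 of either (up to 0.0564), Slc1a5 without unstimulated replicate 1 (0.068), and Slc7a1 without any unstimulated array, LPS replicate 1 or 3, or knockdown replicate 3 (up to 0.123).

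Calls after LPS in lists of genes from the pathways around these carriers are to be read against the shares of all genes. Without pairing, 3.99% of all genes were called higher and 6.86% lower. In that fit the counts for glycolysis and lysosomal sensing lie near those shares. The counts called lower among the other carriers (4 of 24) and the ATF4 amino acid response (4 of 22) lie above the 6.86%. Of 24 measured carriers of the same substrates from other families, 1 rose and 4 fell. Slc15a3, a lysosomal histidine and peptide carrier, rose by 0.82 (SE 0.12, limma adjusted p = 0.0056). Slc36a1, an exporter of amino acids from the lysosome, fell by 1.32 (SE 0.14, limma adjusted p = 0.00154). Slc43a2, a carrier of large neutral amino acids, fell by 1.12 (SE 0.14, limma adjusted p = 0.00252), and Slc6a6, the taurine importer, fell by 0.44 (SE 0.08, limma adjusted p = 0.0101). Of 14 measured genes of amino acid use in myeloid cells, 1 rose and 1 fell. Nos2, which makes nitric oxide from arginine, rose by 3.92 (SE 0.80, limma adjusted p = 0.0186). It read 11.33, 12.85 and 11.92 in LPS-treated cells, against 7.06, 10.24 and 7.04 in unstimulated cells (SD 1.84), where replicate 2 was far above the others. Glul, glutamine synthetase, fell by 1.05 (SE 0.26, limma adjusted p = 0.0361).

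Of 22 measured genes of the ATF4 amino acid response, 2 rose and 4 fell. Atf3, a stress-induced factor, rose by 0.93 (limma adjusted p = 0.000729), and Phgdh, the first enzyme of serine synthesis, by 0.59 (limma adjusted p = 0.0218). Aldh18a1, an enzyme of proline synthesis, fell by 0.96 (limma adjusted p = 0.00211), and Shmt2, the mitochondrial serine enzyme, by 0.59 (limma adjusted p = 0.0306). Of 25 genes of lysosomal amino acid sensing, 2 fell. Sesn1, a sestrin, fell by 2.23 (limma adjusted p = 0.00522), and Lamtor4, a subunit of the lysosomal anchor of mTORC1, fell by 0.64 (limma adjusted p = 0.0376). The list had a median difference of -0.34, against 0.04 for all genes. The paired fit called 7 of its 25 genes lower, against 9.57% of all genes. Of 20 measured glycolysis genes, 1 rose and 1 fell. Hk2, the inducible hexokinase, rose by 0.97 (limma adjusted p = 0.00319), and Pfkfb2, a regulator of phosphofructokinase, fell by 1.00 (limma adjusted p = 0.00437). The chaperones of the lactate carriers, Bsg and Emb, differed by less than 0.01 and by -0.42 and were not called.

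**Figure D3:**
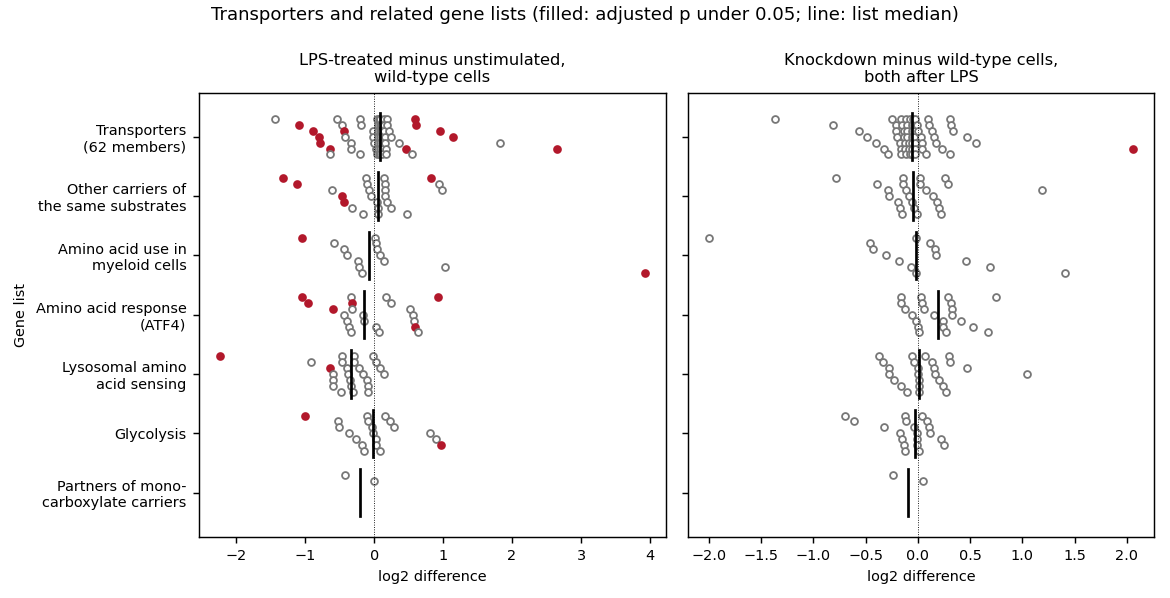
log2 differences of the 62 members and of the measured genes of 6 related lists (1 point per gene, black line at the list's median), after LPS in wild-type cells (left) and in knockdown against wild-type cells after LPS (right). Filled points have an adjusted p under 0.05: they lie on both sides of 0 in 5 of the 7 rows on the left, and the only one on the right is Slc16a9.

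Between knockdown and wild-type cells after LPS, 1 of the 62 members was called. Slc16a9, a carrier of the Slc16 family known in humans for carnitine export, was 4.16-fold higher in knockdown cells. It read 11.16, 11.96 and 11.51 in knockdown cells after LPS, against 8.96, 9.74 and 9.75 in wild-type cells after LPS, and unstimulated wild-type cells read 9.71, 9.91 and 10.74. The knockdown values lay above all 6 wild-type values. The difference from wild-type cells after LPS was 2.06 (SE 0.33, 95% confidence interval 1.30 to 2.81, limma adjusted p = 0.0392, and 0.0118 in the paired fit). The arrays of the same number differed by 2.20, 2.21 and 1.76.

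The second probe set of Slc16a9 was too dim to bear on this difference. Its mean over the 9 arrays was 4.65, only 3.75% of genes had a lower mean, and it lay under the 40th percentile of genes (6.98 to 7.17) on all 9 arrays. It read 4.51, 4.91 and 4.72 in knockdown cells after LPS, against 4.59, 4.65 and 4.59 in wild-type cells after LPS. These ranges overlap, and the difference was 0.11 (SE 0.09, limma adjusted p = 0.669 over all single-gene probe sets). With this dim probe set averaged in, the difference was 1.08 (limma adjusted p = 0.053). The call of the first probe set was lost in 7 of the 9 fits that left out 1 array, with differences of 1.80 to 2.25 and limma adjusted p of 0.0402 to 0.132. It held without wild-type LPS replicate 2 and without unstimulated replicate 3. With only the 6 LPS arrays in the fit, the limma adjusted p was 0.0766. Marker levels moved with the groups too. The mean levels of the dendritic cell list and of the mast cell and basophil list, given above, were lower in all 3 knockdown arrays than in all 3 wild-type LPS arrays, while the macrophage, neutrophil and lymphocyte ranges overlapped. The overlapping macrophage mean held genes that differed in opposite directions. Spic, a factor of red pulp macrophages, read 11.29, 11.36 and 11.34 in knockdown cells after LPS, against 8.71, 7.65 and 9.41 in wild-type cells after LPS, and was 2.74 higher (SE 0.44, limma adjusted p = 0.0384, and 0.0135 in the paired fit). It was the only one of the markers in these lists called without pairing, and like Slc16a9 it was higher in all 3 knockdown arrays. Mertk differed by 0.71 and Csf1r by -0.65, both without overlap and not called. The median marker difference was -0.98 for dendritic cells, and the paired fit called 5 of its 10 genes lower (Irf4, Irf8, Batf3, Ccr7 and Ciita). It also called the mast cell and basophil markers Kit (-1.73), Cpa3 (-1.88) and Gata2 (-0.87) and the neutrophil precursor marker Mpo (-1.74) lower in knockdown cells. The part of these cell type markers in the differences between knockdown and wild-type cells was not tested.

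The share called was 1.61% of the members, against 0.762% of all genes (0.401% higher). The paired fit called 4 members, or 6.45% against 2.75% of all genes. Of these, 2 were higher and 2 lower, where 1.51% of all genes were called higher and 1.24% lower. Slc16a6, known as MCT7 and in zebrafish for moving ketone bodies, read 10.12, 10.17 and 10.20 in knockdown cells, against 9.50, 9.44 and 9.90 in wild-type cells after LPS. The knockdown values were all higher, by 0.56 in the mean (SE 0.12, limma adjusted p = 0.0827, and 0.0333 in the paired fit). Slc2a6, which LPS raised in wild-type cells, read 13.29, 12.81 and 13.25 in knockdown cells, against 13.75, 13.50 and 13.80 in wild-type cells after LPS. The knockdown values were all lower, by 0.46, 0.68 and 0.54 within the numbered pairs, and the difference was -0.56 (SE 0.16, limma adjusted p = 0.154, and 0.0154 in the paired fit). Slc38a2, the amino acid importer induced by amino acid starvation, read 11.11, 10.37 and 10.81 in knockdown cells, against 11.74, 11.37 and 11.62 in wild-type cells after LPS. There was no overlap, with a difference of -0.81 (SE 0.19, limma adjusted p = 0.0995, and 0.0449 in the paired fit).

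**Figure D4:**
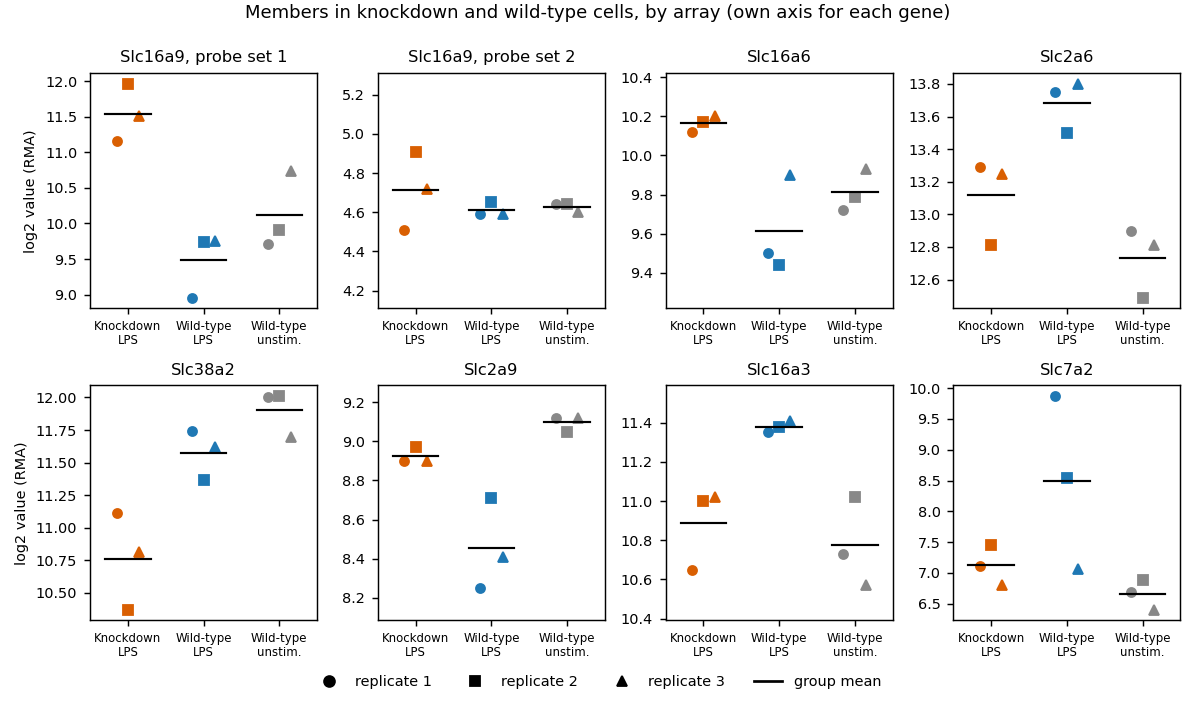
log2 values by array of Slc16a9 (both probe sets) and of 6 further members in knockdown cells after LPS, wild-type cells after LPS and unstimulated wild-type cells, with a line at each group's mean (3 arrays) and an own axis per panel. The first probe set of Slc16a9 lies higher in all 3 knockdown arrays (11.16 to 11.96) than in the wild-type LPS arrays (8.96 to 9.75), while its second probe set is dim (mean 4.65) and its ranges overlap.

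LPS changed 16 members in wild-type cells when calls of either fit are counted. Besides Slc2a6, 5 of these had no overlap between knockdown and wild-type LPS cells without being called. They were Slc16a3, Slc2a9, Slc1a5 (0.31), Slc2a8 (0.15) and Slc16a14 (0.34). Of all genes, 16.6% did not overlap between knockdown and wild-type LPS cells. Both comparisons share the wild-type LPS arrays, and that share was not taken over genes called after LPS. It is therefore not a matched background for members picked by their LPS difference. Slc16a3 read 10.65, 11.00 and 11.02 in knockdown cells, below the wild-type LPS range of 11.35 to 11.41 and within the unstimulated range of 10.57 to 11.02. The difference was -0.49 (SE 0.13, limma adjusted p = 0.142, and 0.0923 in the paired fit). Slc2a9 read 8.90, 8.97 and 8.90 in knockdown cells, above the wild-type LPS range of 8.25 to 8.71 and below the unstimulated range of 9.05 to 9.12, with a difference of 0.47 (SE 0.11, limma adjusted p = 0.0971, and 0.0752 in the paired fit). Slc7a2 read 7.11, 7.46 and 6.81 in knockdown cells, which overlap the wild-type LPS values, where replicate 3 stood at 7.07. The difference of -1.37 had an interval of -2.71 to -0.02 (limma adjusted p = 0.373).

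For the other LPS-changed members the interval of the knockdown difference included 0. It was -0.38 to 0.58 for Slc16a10, -0.49 to 0.32 for Slc7a11, -0.10 to 0.55 for Slc7a1 and -0.29 to 0.10 for Slc3a2. For the genes that fell with LPS it was -0.39 to 0.61 for Slc38a9, -0.39 to 0.13 for Slc38a1, -0.16 to 0.43 for Slc16a7, -0.05 to 0.68 for Slc1a5 and -0.02 to 0.32 for Slc2a8. These intervals do not show that the groups were alike. Of the 61 members not called, 10 had an unadjusted p under 0.05, 3 higher and 7 lower in knockdown cells. Besides those above they were Slc7a7 (0.31), Slc2a3 (-0.40), Slc1a4 (-0.25) and Slc1a6 (-0.21). Slc1a4 was among the dim members that fell short of the percentile cut-off given above. With Slc16a9 included, 11 of the 62 members had an unadjusted limma p under 0.05. The same held for 2614 of all 19938 genes, so such members are to be read against that background. The 3 values of the groups did not overlap for 16 of the 62 members (25.8%), against 16.6% of all genes, with 7 higher (8.21% of all genes) and 9 lower (8.38% of all genes). By role, the knockdown differences ran from -0.32 to 0.32 over the 10 light chains and from -0.21 to -0.11 over the 5 glutamate carriers. They ran from -0.81 to 0.17 over the Slc38 family and from -0.56 to 0.47 over the sugar carriers. Of the 5 glutamate carriers, 3 were dim members. Of all 25 dim members, 22 had a negative difference here and 22 a positive one after LPS in wild-type cells. The shared sign of the glutamate carriers is thus no trait of theirs.

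None of the genes in the 6 pathway lists was called between knockdown and wild-type cells after LPS without pairing, where 0.762% of all genes were called. The paired fit called 2.75% of all genes, and from these lists only Rragd and Bcat2, both higher in knockdown cells. Rragd, a GTPase and 1 of 25 genes of lysosomal amino acid sensing, stood at 1.04 (paired adjusted p = 0.0215). Bcat2, a branched-chain amino acid transaminase and 1 of 14 measured genes of amino acid use, stood at 0.46 (paired adjusted p = 0.0287). The ATF4 list had a median difference of 0.19, against -0.03 for all genes, with Psat1, an enzyme of serine synthesis, at 0.75 (limma adjusted p = 0.0985). The glycolysis list had a median of -0.03. Nos2 differed by -2.00 (SE 0.80, limma adjusted p = 0.333).

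Set against unstimulated wild-type cells, LPS-treated knockdown cells had 6 members higher and 4 lower, 16.1% against 10.9% of all genes (4.23% higher, 6.64% lower). This comparison shares its knockdown arrays with the one above and its unstimulated arrays with the LPS comparison. Slc16a10 stood at 2.75 (SE 0.21, limma adjusted p = 0.000328), Slc16a9 at 1.42 (SE 0.33, limma adjusted p = 0.0292), Slc7a11 at 1.07 (limma adjusted p = 0.00756), Slc7a1 at 0.82 (limma adjusted p = 0.00906), Slc3a2 at 0.37 (limma adjusted p = 0.0281) and Slc38a6 at 0.29 (limma adjusted p = 0.0335). The second probe set of Slc16a9 stood at 0.08 (limma adjusted p = 0.721 over all single-gene probe sets). Lower were Slc38a9 at -0.98 (limma adjusted p = 0.0253), Slc38a1 at -0.91 (limma adjusted p = 0.00256), Slc16a7 at -0.75 (limma adjusted p = 0.00902) and Slc38a2. Slc38a2 read 11.11, 10.37 and 10.81 in LPS-treated knockdown cells, against 12.00, 12.01 and 11.70 in unstimulated wild-type cells. The difference was -1.14 (SE 0.19, limma adjusted p = 0.00733). In wild-type cells LPS gave -0.33 (limma adjusted p = 0.304). Knockdown against wild-type cells after LPS gave -0.81 (limma adjusted p = 0.0995). Because these groups differ in both LPS and knockdown, no member's difference here is an LPS response of knockdown cells. The values of the groups did not overlap for Slc38a2, nor for 19 members in all (30.6%, against 27.3% of all genes), some of them by narrow margins. The paired fit called 15 members in this comparison, 8 higher and 7 lower, 24.2% against 14.3% of all genes (5.62% higher, 8.65% lower). It added Slc2a6 (0.38) and Slc16a6 (0.35) as higher and Slc7a5 (-0.71), Slc38a10 (-0.54) and Slc1a5 (-0.49) as lower. Slc16a3 (0.11) and Slc2a9 (-0.17) were not called in either fit.

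Calls in this comparison also rested on single arrays. Slc16a9 was lost without unstimulated replicate 1 or 2 or knockdown replicate 2 or 3 (limma adjusted p up to 0.103). Slc38a9 and Slc3a2 were lost without replicate 1 or 3 of either group (up to 0.0977 and 0.109), and Slc38a6 was held in 2 of 9 such fits (up to 0.109).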

How the data were processed

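RNA from 9 cultures was hybridised to Affymetrix mouse gene arrays after whole-transcript sense labelling, per the labels' protocols. The deposited values are log2 values that the authors made with RMA, per the submitters' processing notes; its version is not given in the sources used here. No further normalization was applied. Of 35556 probe sets, 21789 name 1 gene, 1621 several and 12146 none in the platform's gene table. Symbols were updated through the Entrez identifier to RefSeq's GRCm38.p6 table (21698 matched, 91 kept the platform's symbol), and 1 probe set per gene was kept by the highest mean, giving 19938 genes. Of the 62 members, 3 have more than 1 probe set.

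A mean per group was fitted to all 9 arrays with limma 3.58.1 in R 4.3.3 (6 residual and 2.31 prior degrees of freedom), and p-values were adjusted over 19938 genes. The fit was also run on simulated arrays that varied independently, so that run does not cover the correlations between arrays given below. The number of arrays limits the precision. Deviations from group means correlated by 0.138 to 0.481 between arrays of the same replicate number and by -0.414 to 0.254 between others, so a paired fit with the number as a block was run as an alternative, although the labels do not say what a number shares. Calls are from the fit without the block unless the paired fit is named. Named were all members called in any comparison in either fit, Slc3a2, Slc16a9, and up to 4 genes of smallest p per pathway list. The members and lists were chosen with earlier results of these data known. Alternatives covered the replicate block, dim probe sets, the probe set rule, scaling, array weights, the arrays fitted, the prior and single arrays. Probe sets naming several genes or none were left out.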

Additional observations from a re-analysis of the deposited data

How the results depend on the processing

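Among the members named, no difference that was called in the main fit or in the alternative changed direction between the fits. Differences called in neither were not counted. The counts of called members held within 1.5 times when arrays were centred on their median or quantile-normalized, with a trend in the prior, with the probe set of largest variance and with dim probe sets left out. With array weights the counts were 28 after LPS (16 higher, 12 lower), 17 in knockdown against wild-type cells after LPS (9 higher, 8 lower) and 17 in the third comparison, knockdown LPS against unstimulated (9 lower). With the replicate block they were 16, 4 (2 higher, 2 lower) and 15 (7 lower). The knockdown count was 0 in the mean of all probe sets of a gene (0 higher) and in a fit of the 6 arrays alone (0 higher). Without the 3 arrays numbered 2, chosen after seeing the data, the counts were 19 after LPS (10 lower), 2 in knockdown cells (1 lower, Slc2a9 higher and Slc2a6 lower, without Slc16a9) and 13 (7 lower). Leaving out 1 array at a time gave 8 to 14 members after LPS (3 to 7 higher), 0 to 2 in knockdown cells (0 to 2 higher) and 6 to 11 in the third comparison (3 to 6 higher). The lowest counts came without unstimulated replicate 3 (3 higher after LPS) and without unstimulated replicate 1 (6 in the third comparison, 3 higher). The knockdown count was 0 without replicate 1 of any group, unstimulated or knockdown replicate 2, or knockdown replicate 3, and 2 without wild-type LPS replicate 2. Without wild-type LPS replicate 3 the call was Slc16a6 in place of Slc16a9. The cause of these shifts was not tested.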

Other observations

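Unstimulated replicate 2 lay nearest to the LPS-treated mean for 9 of the 12 members called after LPS in wild-type cells, and replicates 1 and 3 for 2 and 1. Over all 2164 genes called in that comparison, replicate 2 was nearest for 59.7%, replicate 1 for 20.4% and replicate 3 for 19.9%. This was looked at after the values were seen. Within the numbered pairs, Slc16a10 rose by 3.01, 2.00 and 2.94, Slc7a11 by 1.34, 0.60 and 1.51, and Slc38a9 differed by -1.48, -0.33 and -1.47.

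Slc7a2 had an LPS difference of 3.19, 1.65 and 0.67 in the pairs numbered 1 to 3. Its knockdown minus wild-type difference after LPS was -2.76, -1.08 and -0.26 in the same pairs, and both sets of differences share the wild-type LPS arrays.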
